A study of Homo sapiens with 6 samples.

Results

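The genes described here are the matrix metalloproteinases (MMP), the ADAM and ADAMTS proteases and the tissue inhibitors of metalloproteinases (TIMP). They were taken by symbol from the rows of the deposited expression matrix, as MMP, ADAM or ADAMTS followed by a number alone and TIMP1 to TIMP4. This gave 67 genes of 35268 named genes, of which 22 were MMP, 4 TIMP, 22 ADAM and 19 ADAMTS genes. Expression was measured by sequencing polyadenylated RNA of Rh30, an established line of fusion-positive rhabdomyosarcoma cells that carry PAX3-FOXO1. The cells had been exposed for 24 hours to 1 µM YK-4-279, a small molecule that disrupts protein interactions of ETS transcription factors, or to its solvent, DMSO. There were 3 libraries in each group. The comparison asks how the compound, relative to its solvent, altered transcript levels in this cell line.

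MMPs are zinc-dependent enzymes that cut collagens, gelatin, proteoglycans and other proteins of the extracellular matrix, and most are secreted, although the membrane-type enzymes act at the cell surface. ADAMs are membrane-anchored, and those with an active site shed the outer parts of receptors and growth factors, whereas the secreted ADAMTS proteases process procollagens, cartilage proteoglycans and von Willebrand factor. TIMPs bind the active site of these enzymes and block it, and the balance between proteases and TIMPs is widely studied in tumor invasion.

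The libraries differed moderately in depth. DMSO replicates 1, 2 and 3 held 16724650, 20771226 and 24677433 reads on named genes. YK-4-279 replicates 1, 2 and 3 held 23230675, 18752655 and 19876724. A value of 0 allows up to 3 reads, which corresponds to between 2.50 and 3.78 normalized counts depending on the library, and this floor covers counting error only. The values are normalized counts, that is reads multiplied by a factor of the library. Nothing states that the replicates were separate cultures, so that p-values measure the spread between these libraries, which may be technical.

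Markers fixed for the cell type had the pattern of the label. All of the 8 muscle lineage genes except MYF5 had a mean of at least 10, and their summed level lay between 68103 and 80843 normalized counts per library, led by MYOD1. MYF5, also a myogenic regulator, had a mean of 0.286. Of the 6 leukocyte and macrophage markers, CD68 and AIF1 were at 0 in all 6 libraries, and their sum was 3.78, 13.0 and 10.0 in the DMSO libraries and 25.7, 18.5 and 18.0 with YK-4-279, most of it CD14. The 4 endothelial markers summed to between 40.9 and 64.0, with PECAM1 the most abundant. The 4 epithelial markers summed to between 50.1 and 90.0, nearly all of it EPCAM, with KRT5 at 0. The 6 fibroblast markers, several of which mesenchymal tumor cells also express, summed to between 1354 and 1676, with COL1A1 the most abundant and DCN at 0.673. The sums of the leukocyte and of the fibroblast markers were higher in each YK-4-279 library than in each DMSO library, and their part in any result was not tested.

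DMSO replicate 1 was the most deviant library. Its log2 values correlated with those of the other 5 libraries at a mean of 0.989, against 0.992 to 0.993 for the others. Of the 36 genes of these families that were tested, 20 had their highest or lowest value in this library, beside 62.6% of all genes. The other libraries held the extreme of 8 to 15, beside 21.2% to 32.6% of all genes. Across the 13705 genes tested that had a GC content, its deviation from the other DMSO libraries had a rank correlation of -0.614 with GC content, and across the 36 genes it was -0.716. GC content was not particular to this library: across the 36 genes the same correlation, within each group, was 0.505 for DMSO replicate 2, 0.675 for DMSO replicate 3 and 0.532, -0.322 and -0.0597 for the YK-4-279 replicates. The deviations of the 3 libraries of a group are tied, because each is taken from the other libraries of its group. These are descriptions across genes of the same libraries, and the genes are not independent replicates. Counts of calls, and values of several genes, are therefore also given without this library.

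Rh30 cells expressed a restricted part of these families. A mean of at least 10 normalized counts over the 6 libraries, the minimum for a test, was reached by 36 of the 67 genes, comprising 9 MMPs, 3 TIMPs, 11 ADAMs and 13 ADAMTSs. Of these 36, 26 had a mean of at least 100 and 12 a mean of at least 1000. The other 31 were at or near silence. Among them 13 were listed at 0 in all 6 libraries, 13 had between 1 and 7 reads over all 6 libraries together, and 5 had between 19 and 61. All MMP, ADAM, ADAMTS and TIMP transcripts together made up between 0.258% and 0.281% of the normalized counts of a library. Expression was concentrated in few genes. In the DMSO libraries ADAMTS1, MMP2, ADAM10 and MMP14 held 56.3% of the counts of the 67 genes, and 14 genes held 90.2%.

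**Figure D1:**
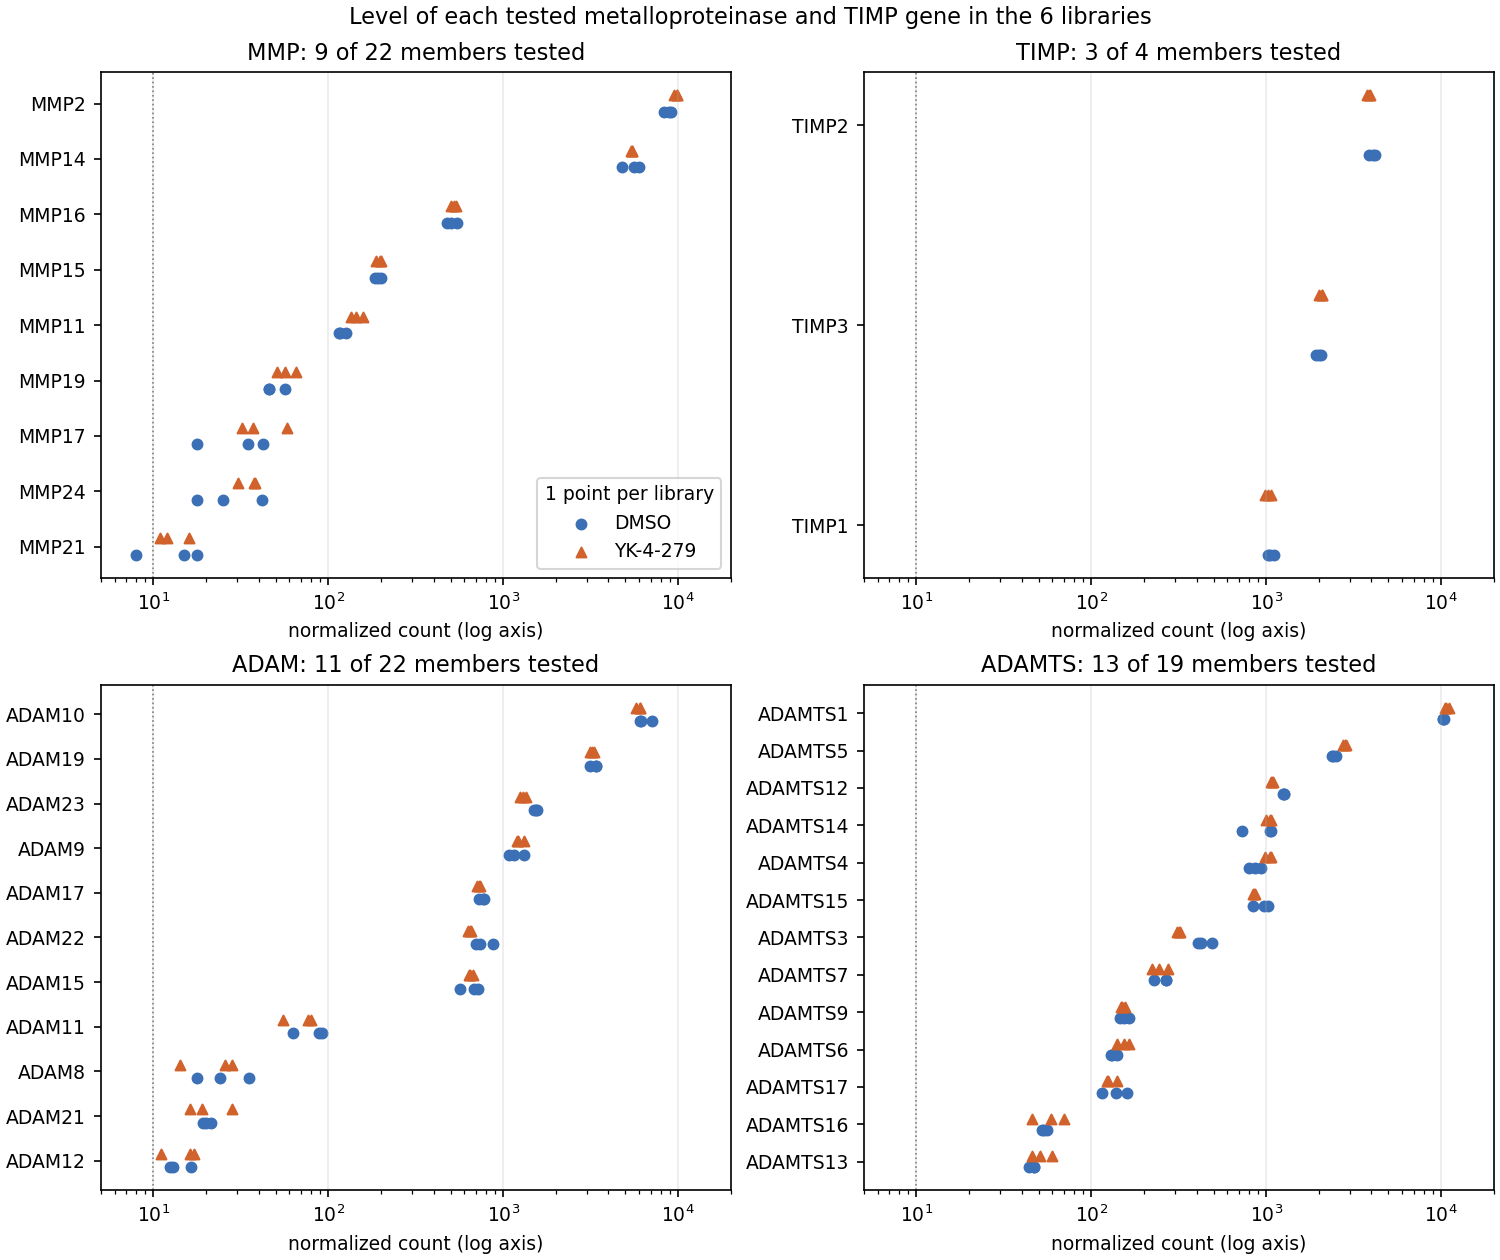
Normalized count (log axis) of the 36 tested genes in the 3 DMSO (circles) and 3 YK-4-279 (triangles) libraries, with 1 point per library, 1 panel per family and a dotted line at the test minimum of 10. Means run from 13.3 (MMP21) to 9244 (MMP2) among the MMPs, and for most genes the circles and triangles overlap.

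Among the MMPs, the transcripts of Rh30 cells came mostly from a gelatinase and a membrane-type enzyme. MMP2, which degrades gelatin and basement membrane collagen, had 8305, 9142 and 8899 normalized counts in DMSO replicates 1, 2 and 3. MMP14, the membrane-type enzyme known to activate pro-MMP2 at the cell surface, had 4767, 5976.5 and 5609. The other membrane-type genes had fewer counts, with MMP16 at 509 ± 32.6 (SD, n = 3) and MMP15 at 192 ± 7.72. MMP17 and MMP24 had DMSO means of 31.7 and 28.1, and MMP25, with 5 to 17 reads per library, stayed under the minimum. Of the 3 stromelysins, only MMP11, a furin-activated member, was tested, with a DMSO mean of 120.03 ± 5.998. MMP19 and MMP21 were the remaining tested MMPs, with means of 49.5 and 13.6.

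The interstitial collagenases and the matrilysins were almost without reads. MMP1, MMP13, MMP7 and MMP26 were at 0 in all 6 libraries, as were MMP12, MMP20 and MMP27. MMP8 and MMP10 each had 1 read over all 6 libraries, and MMP28 had 2. MMP3 had 1 to 6 reads per library, and MMP9, the other gelatinase, had 1 to 10. Silence was shared by neighbors in the genome: 9 MMP genes lie in a run on chromosome 11 (hg38, chr11:102520508-102955732), and together they received 21 reads of 124033363 in the 6 libraries. Of these 9 genes, 6 were at 0 throughout, and 19 of the 21 reads fell on MMP3.

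RefSeq promoter windows of 300 bases, from 250 before to 50 after the start (GRCh38.p14), were in the table for 38 of the 67 genes. The 23 windows of tested genes had a median GC content of 72.7%, and the 16 windows of 15 untested genes had 49.0%, beside 58.7% over all 35116 windows. The low median came from untested MMP and ADAM genes, whereas the windows of untested ADAMTS genes had between 63.7% (ADAMTS10) and 80.3% (ADAMTS2), within or near the 52.0% (ADAMTS6) to 79.7% (ADAMTS14) of tested ADAMTS genes. The TATA box letters TATAAA, searched on both strands like the other motifs, were in 2 of the 23 and 6 of the 16 windows, and in 11.5% of all windows. The AP-1 motif TGANTCA was in 1 of the 23 and 3 of the 16, beside 7.71% of all. The ETS core AGGAAG was in 6 of the 23 and 4 of the 16, beside 33.6% of all. A match describes letters only, and the comparison was not tested. The 250 bases before the start are shown for 4 genes, because they set the gene that passed the test and an abundant MMP beside a pair of MMPs of the chromosome 11 run. They are read 5′ to 3′ on the strand of the gene, with motif matches in capitals. ADAMTS3 lies on the minus strand (chr4:72569222-72569471), MMP14 on the plus strand (chr14:22836335-22836584), and MMP7 (chr11:102530748-102530997) and MMP10 (chr11:102780629-102780878) on the minus strand.
ADAMTS3: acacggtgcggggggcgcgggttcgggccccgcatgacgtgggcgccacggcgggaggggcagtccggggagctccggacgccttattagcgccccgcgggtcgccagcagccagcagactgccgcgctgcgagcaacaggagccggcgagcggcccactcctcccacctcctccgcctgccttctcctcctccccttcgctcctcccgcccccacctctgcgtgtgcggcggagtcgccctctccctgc
MMP14: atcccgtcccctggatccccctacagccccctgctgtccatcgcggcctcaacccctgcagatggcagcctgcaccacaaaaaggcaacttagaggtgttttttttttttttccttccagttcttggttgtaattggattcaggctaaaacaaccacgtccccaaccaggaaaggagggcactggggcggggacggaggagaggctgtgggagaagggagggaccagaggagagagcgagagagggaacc
MMP7: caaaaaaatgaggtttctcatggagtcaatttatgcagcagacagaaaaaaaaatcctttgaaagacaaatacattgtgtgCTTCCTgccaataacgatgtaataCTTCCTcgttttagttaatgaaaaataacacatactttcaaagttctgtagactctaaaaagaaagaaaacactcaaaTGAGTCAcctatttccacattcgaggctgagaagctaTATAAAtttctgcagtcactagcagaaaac
MMP10: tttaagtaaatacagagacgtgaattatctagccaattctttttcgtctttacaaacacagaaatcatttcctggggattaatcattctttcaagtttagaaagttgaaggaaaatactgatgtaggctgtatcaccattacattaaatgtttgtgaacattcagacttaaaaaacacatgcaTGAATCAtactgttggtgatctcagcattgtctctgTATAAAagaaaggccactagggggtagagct
In these stretches ADAMTS3 and MMP14 held none of the 3 motifs, and the GC content was 75.2% and 56.8%. MMP7, at 33.6% GC, held the AP-1 letters 67 bases and the TATA box 30 bases before the start, with the reverse complement of the ETS core at 169 and 145 bases. MMP10, at 34.4% GC, held the AP-1 letters at 67 bases and the TATA box at 31 bases. Yet MMP7 had 0 reads and MMP10 had 1 read in the 6 libraries.

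Of the TIMPs, 3 of 4 were expressed at a high level. TIMP2, which besides its inhibitory role takes part in MMP14-dependent activation of pro-MMP2, had 4094, 3849 and 4166 normalized counts in the DMSO libraries. TIMP3, the matrix-bound inhibitor that also blocks ADAM17 and several ADAMTS enzymes, had 2070.4, 1994.5 and 1923. TIMP1, a secreted inhibitor of most MMPs, had 1109.6, 1020.2 and 1055. TIMP4 had 1 read over all 6 libraries, in a YK-4-279 library.

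The ADAM family was led by sheddases. ADAM10, which releases the outer parts of Notch receptors, amyloid precursor protein and cadherins, had 7137, 6088 and 6169 normalized counts in the DMSO libraries. ADAM19 had 3132, 3380.5 and 3374, and ADAM17, the TNF-alpha converting enzyme, had 769, 728 and 777. Of the 12 ADAM genes grouped as having a catalytic site, 8 were tested, and these also included ADAM9 (DMSO mean 1182 ± 122), ADAM15 (655 ± 79.3), ADAM8, ADAM12 and ADAM21, the last 3 with means of 13.97 to 25.6. Among the 8 ADAMs without a catalytic site, 3 were tested. They were the neural adhesion proteins ADAM23 and ADAM22, which bind LGI proteins, with DMSO means of 1532 ± 26.7 and 768 ± 90.9, and ADAM11 with 81.6 ± 16.1. ADAM2, ADAM7 and ADAM18, known for sperm or epididymal expression, were at 0 in all libraries, as were ADAM33 and the pseudogene ADAM6. ADAM32 had 2 to 10 reads per library, and ADAM5, ADAM20, ADAM28, ADAM29 and ADAM30 had at most 3.

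Of the ADAMTS family, 13 of 19 genes were tested. ADAMTS1, a secreted proteoglycanase, had 10438, 10309 and 10309.9 normalized counts in the DMSO libraries. ADAMTS5, the aggrecanase studied in cartilage loss, had 2364, 2495 and 2418. These genes are neighbors on chromosome 21, 72.5 kb apart. Of the 7 proteoglycanases, ADAMTS4, ADAMTS15 and ADAMTS9 were also tested, with DMSO means of 864 ± 67.8, 949 ± 94.7 and 154 ± 8.98, while ADAMTS8 and ADAMTS20 had at most 2 reads in a library. The procollagen N-propeptidases were represented by ADAMTS14 at 947 ± 188 and ADAMTS3 at 439.7 ± 45.8, with 2 reads in all for ADAMTS2. Both enzymes that cleave cartilage oligomeric matrix protein were present, ADAMTS12 at 1259 ± 16.2 and ADAMTS7 at 254 ± 21.4. ADAMTS13, the von Willebrand factor protease, had a mean of 45.95 ± 1.58. ADAMTS6, ADAMTS16 and ADAMTS17 had DMSO means of 134, 53.6 and 138, and ADAMTS18 had 0 to 11 reads per library. ADAMTS10 was listed at 0 in all 6 libraries, and ADAMTS19 had 1 read.

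Per kilobase of the longest annotated transcript, the scale on which genes can be compared, the order of levels in the DMSO libraries was led by MMP2 at 2499 ± 122 normalized counts per kb. ADAMTS1 followed at 1781 ± 12.7, MMP14 at 1415 ± 161, TIMP2 at 1105 ± 45.5 and TIMP1 at 969.6 ± 41.1. ADAM10 had 579 ± 52.3 and ADAM19 had 508 ± 21.8. TIMP3 came next at 434 ± 16.05, followed by ADAMTS5 at 252 ± 6.84 and ADAM23 at 242 ± 4.21. The order depends on the transcript length used: with the median length of each gene's transcripts, ADAM10 led at 9592 normalized counts per kb, followed by MMP2 at 6427 and MMP14 at 4667, and 8 of the 10 highest genes were shared.

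Summed over a family, levels were similar in both groups. The MMP sum was 14059, 16034 and 15496.5 normalized counts in the DMSO libraries and 16324, 16338 and 15814 with YK-4-279, and MMP2 made up 57.8% of it in the DMSO libraries. The ADAM sum was 15463.5, 14426 and 14527 in DMSO and 13594, 13889.6 and 14116 with YK-4-279, so that the groups did not overlap. ADAMTS sums were 17688, 18282 and 18086 in DMSO and 19165, 18597 and 18353 with YK-4-279, again without overlap. In TIMP sums the groups overlapped, with 7274, 6864 and 7145 in DMSO and 6870.4, 7040.4 and 6920.5 with YK-4-279. The mean difference was 6.33% for MMP, -2.12% for TIMP, -6.34% for ADAM and 3.81% for ADAMTS genes. Among the DMSO libraries, replicate 1 had the lowest MMP and ADAMTS sums and the highest TIMP and ADAM sums. These differences include that library and were not computed without it. Without the gene of the largest share it was 0.606% for MMP, 0.900% for TIMP, -5.08% for ADAM and 3.54% for ADAMTS genes, so that the TIMP difference had the other sign and most of the MMP difference came from MMP2. No family sum was tested.

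**Figure D2:**
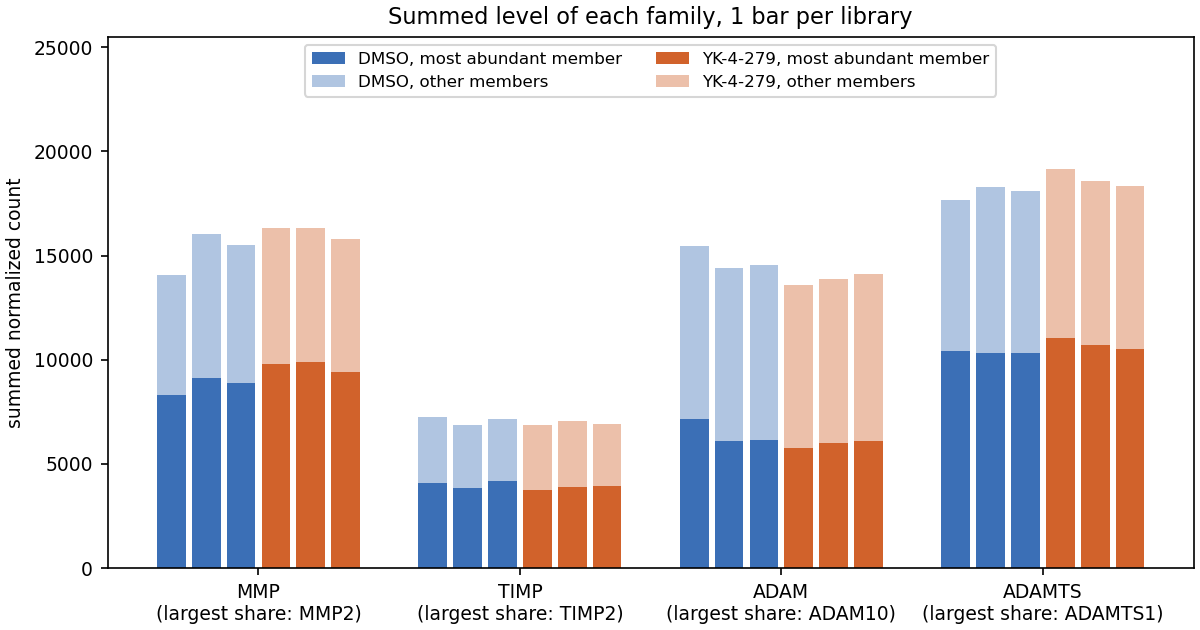
Summed normalized count of each family in each library (3 DMSO bars, then 3 YK-4-279 bars), with the gene of the largest share in solid color and the other members in pale color. MMP2, TIMP2, ADAM10 and ADAMTS1 make up between 43.7% and 57.8% of their family's sum in the DMSO libraries, and sums of both groups are close.

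YK-4-279 was followed by few differences in these genes. In limma, across all 13930 genes tested, 475 genes had a Benjamini-Hochberg adjusted p under 0.05 (3.41%), 176 higher (1.26%) and 299 lower (2.15%) with YK-4-279. With quantile normalization the split was 132 higher and 145 lower. Of the 36 genes of these families, 1 was called, ADAMTS3, and it was lower. A share of 1 in 36 (2.78%) is near the background and is not a result about the families. None of the 9 MMPs, 3 TIMPs and 11 ADAMs was called with all libraries in limma, edgeR or DESeq2 before any removal of GC content and length trends, and their limma counts at an unadjusted p under 0.05 were 2, 0 and 2. In edgeR, which called 465 genes (3.34%), ADAMTS3 and ADAMTS5 were called. DESeq2 called 623 of 12849 genes (4.85%) and among the 34 members with an adjusted p it called ADAMTS3, ADAMTS5 and ADAMTS4. Fewer cells of a kind and less RNA per cell cannot be told apart in such libraries.

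The distribution of differences was narrow. The median log2 fold change was 0.01 over the 36 genes and -0.01 over all genes tested. The family medians were 0.15 for MMP, -0.05 for TIMP, -0.06 for ADAM and 0.06 for ADAMTS genes, and with quantile normalization those of the TIMP and ADAMTS genes had the other sign, at 0.0033 and -0.03. The ADAMTS median was also -0.03 among genes with a mean of at least 100 and -0.02 without YK-4-279 replicate 1. The MMP median was 0.04 among genes with a mean of at least 100, and the ADAM median ranged from -0.15 with quantile normalization to -0.02 without DMSO replicate 3, both without a change of sign. Of the 36 genes, 19 had a positive and 17 a negative log2 fold change. In 5 genes each YK-4-279 library was above each DMSO library (10.9% of all genes tested), and in 5 each was below (15.1% of all genes tested). The former were MMP2, MMP11, ADAMTS1, ADAMTS4 and ADAMTS5, and the latter ADAM10, ADAM22, ADAM23, ADAMTS3 and ADAMTS12.

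**Figure D3:**
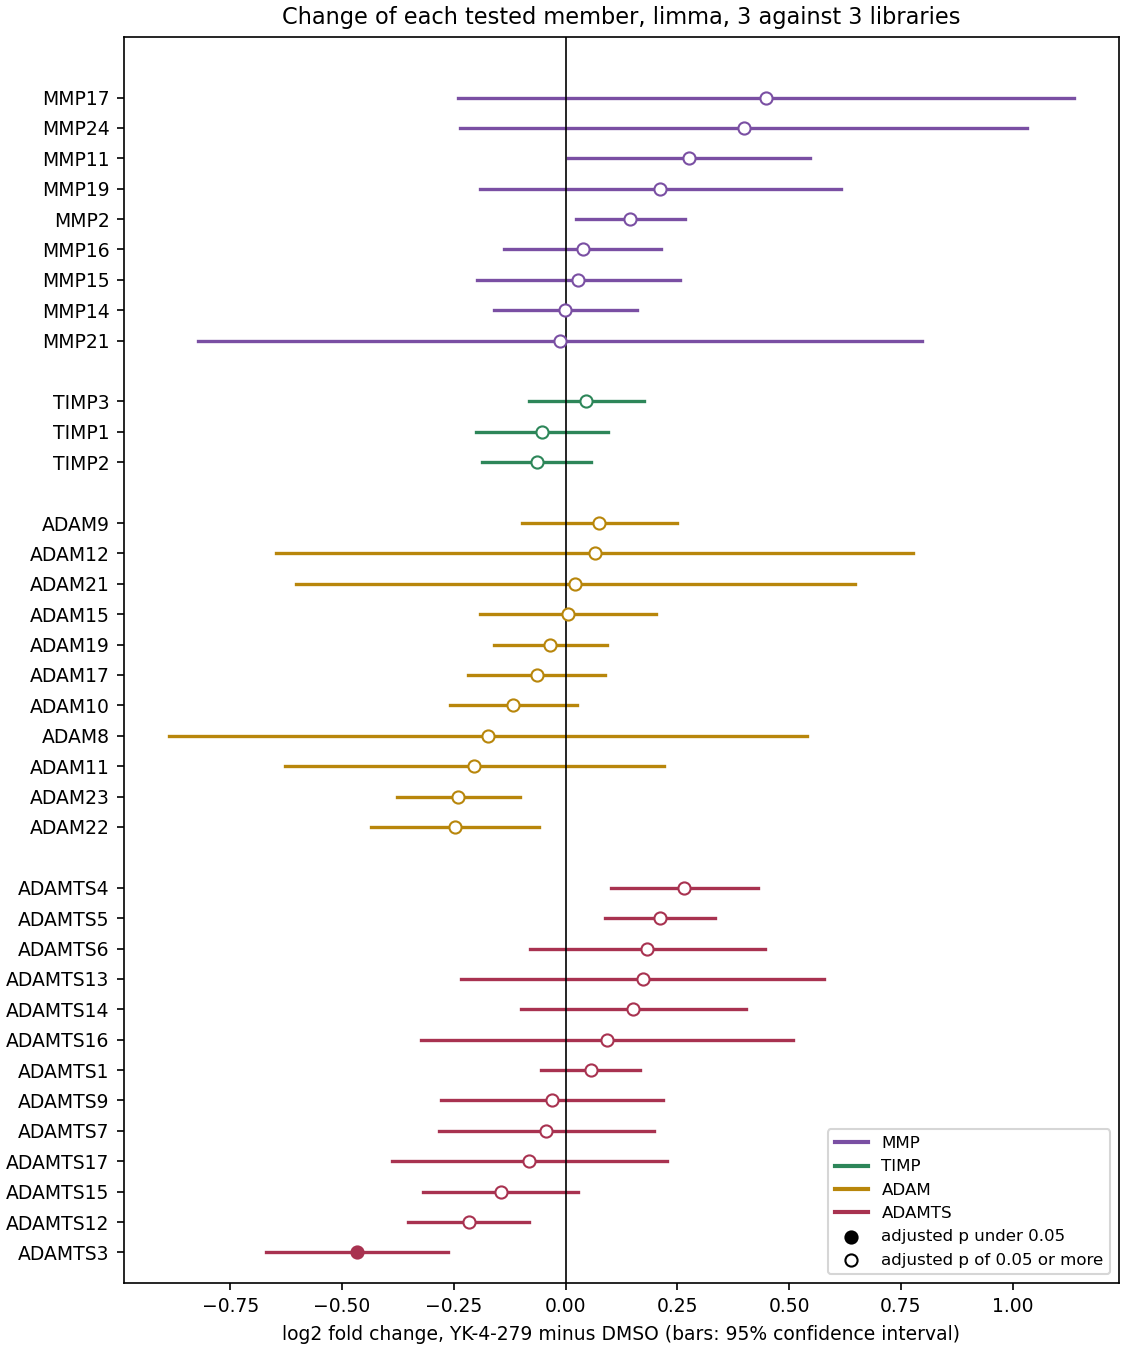
Log2 fold change (YK-4-279 minus DMSO) of the 36 tested genes with 95% confidence intervals from limma, colored by family, with filled points for an adjusted p under 0.05. Only ADAMTS3, at -0.47, is filled, and the widest intervals belong to genes of low count such as MMP17, MMP21, ADAM8 and ADAM12.

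ADAMTS3 removes the amino-terminal propeptide of procollagens and processes VEGF-C. It had 492, 406 and 422 normalized counts in DMSO replicates 1, 2 and 3, and 310.2, 318 and 322 in YK-4-279 replicates 1, 2 and 3. Each of the 3 treated libraries was below each DMSO library, and DMSO replicate 1 was the highest. The log2 fold change was -0.47 (SE 0.09, 95% confidence interval -0.67 to -0.26), with an adjusted p of 0.0186 in limma. The adjusted p was 0.0193 in edgeR and 0.00406 in DESeq2. Without DMSO replicate 1 the log2 fold change was -0.38, with an adjusted p of 0.00135 in limma. The call was lost when YK-4-279 replicate 1, 2 or 3 was left out (adjusted p of 0.130, 0.109 and 0.0928 in limma), although the log2 fold change stayed between -0.48 and -0.45, and over all alternatives the adjusted p ranged from 0.00135 to 0.130. Without these libraries 19, 23 and 46 genes were called in all. The other tested propeptidase, ADAMTS14, had 730.1, 1061 and 1049.5 in DMSO and 1064, 992 and 1057 with YK-4-279, and its groups overlapped.

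The aggrecanases ADAMTS5 and ADAMTS4 lay close to the threshold, with higher values under YK-4-279. ADAMTS5 had 2364, 2495 and 2418 normalized counts in the DMSO libraries and 2874, 2818 and 2732 in the treated libraries. The groups did not overlap. Its log2 fold change was 0.21 (SE 0.06, 95% confidence interval 0.09 to 0.33), with an adjusted p of 0.0628 in limma, 0.0444 in edgeR and 0.0215 in DESeq2, and a range of 0.00136 to 0.312 over all alternatives. ADAMTS4 had 796, 931 and 865 in DMSO and 1072, 1051 and 989 with YK-4-279, again without overlap. Its log2 fold change was 0.27 (SE 0.08), with an adjusted p of 0.0761 in limma, 0.0633 in edgeR and 0.0387 in DESeq2, and a range of 0.0103 to 0.332 over all alternatives. ADAMTS1, the most abundant proteoglycanase by counts, had 11067, 10722 and 10513 in the treated libraries, a log2 fold change of 0.06 with an adjusted p of 0.593 in limma.

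ADAM23 and ADAMTS12 also missed the threshold narrowly, with lower values under YK-4-279. ADAM23 had 1551, 1502 and 1545 normalized counts in the DMSO libraries and 1299.9, 1239.9 and 1355 in the treated libraries, which did not overlap. Its log2 fold change was -0.24 (SE 0.06), with an adjusted p of 0.0579 in limma, 0.0764 in edgeR and 0.0557 in DESeq2, and a range of 0.00111 to 0.263 over all alternatives. ADAMTS12 had 1272, 1241 and 1264 in DMSO and 1071, 1096 and 1083 with YK-4-279, again apart. Its log2 fold change was -0.22 (SE 0.06), with an adjusted p of 0.0776 in limma and a range of 0.00454 to 0.318 over all alternatives. ADAM22, a relative of ADAM23 with the most negative log2 fold change among ADAM genes at a mean of at least 100, had 870.01, 696 and 736 in DMSO and 632, 652 and 648 with YK-4-279. Its groups did not overlap, DMSO replicate 1 was the highest, and the log2 fold change of -0.25 had an adjusted p of 0.148 in limma. Without DMSO replicate 1 the log2 fold change of ADAM22 was -0.15, with an adjusted p of 0.122 in limma.

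**Figure D4:**
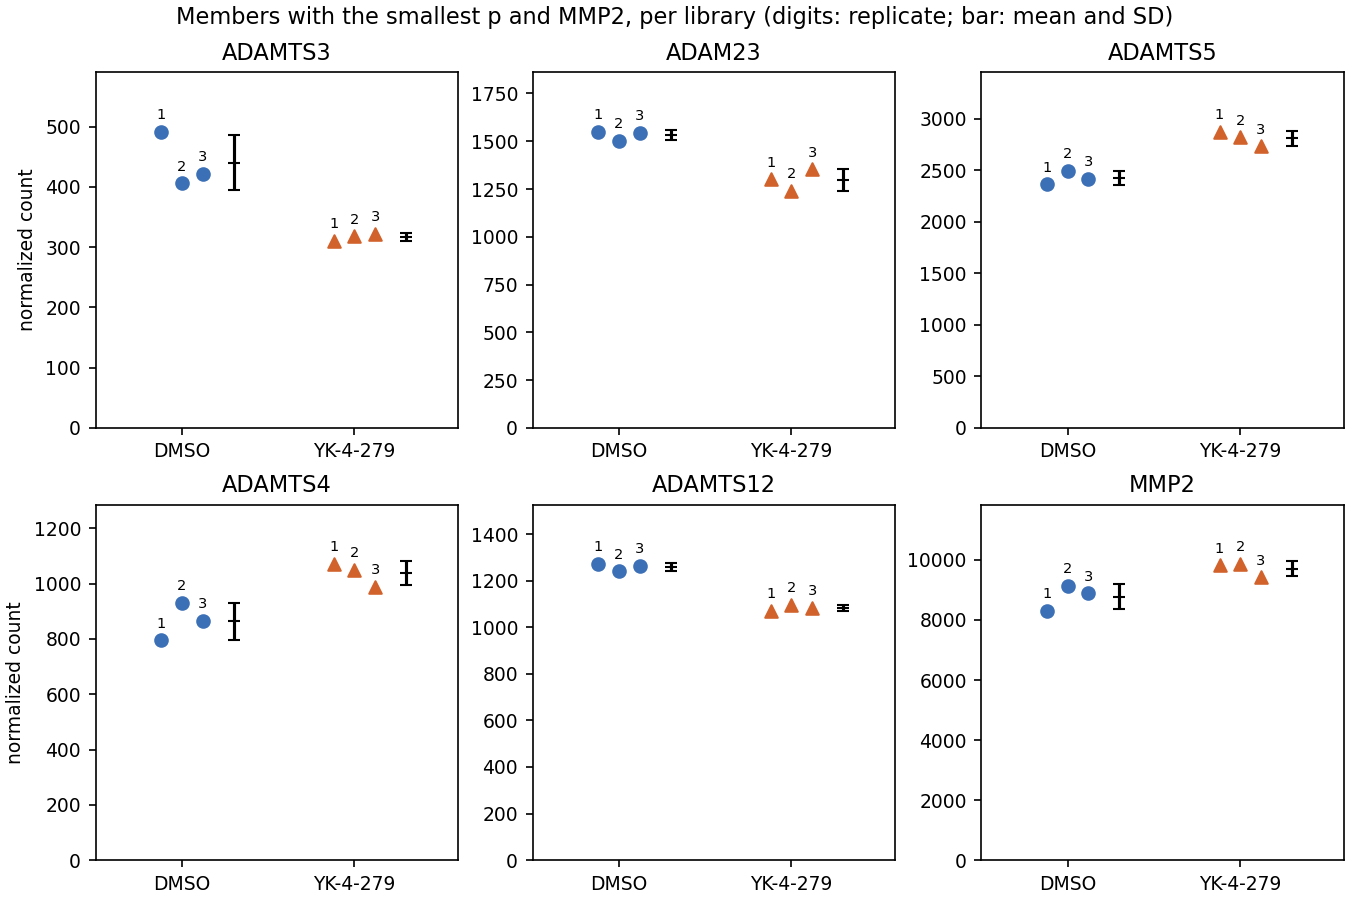
Normalized count per library, from 0, of the 5 genes with the smallest p-values and of MMP2, in DMSO (circles) and YK-4-279 (triangles), with the replicate number at each point and the mean and SD beside each group. In all 6 genes the groups are apart, and the distance is small relative to the level except in ADAMTS3.

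The number of calls depended strongly on DMSO replicate 1. Without it, limma called 1823 of 13930 genes (13.1%), and 6 of the 36 genes, namely ADAM23, ADAMTS3, ADAMTS12 and ADAMTS15 lower and ADAMTS4 and ADAMTS5 higher. A count of 6 of 36 is near that background share and is not a result about the families. Of the 6, 5 are ADAMTS genes. ADAMTS15, a proteoglycanase named here after its values were seen, had 845, 1030.2 and 971 in DMSO and 866, 856 and 843 with YK-4-279. Its log2 fold change was -0.14 with all 6 libraries (adjusted p of 0.360 in limma) and -0.23 without DMSO replicate 1 (adjusted p of 0.00512), and the adjusted p ranged up to 0.611 over the alternatives. With all 6 libraries kept and a loess curve over GC content and length subtracted per library, limma called 1556 of 13705 genes (11.4%) and 8 of the 36, the same 6 with MMP2 and ADAM22.

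**Figure D5:**
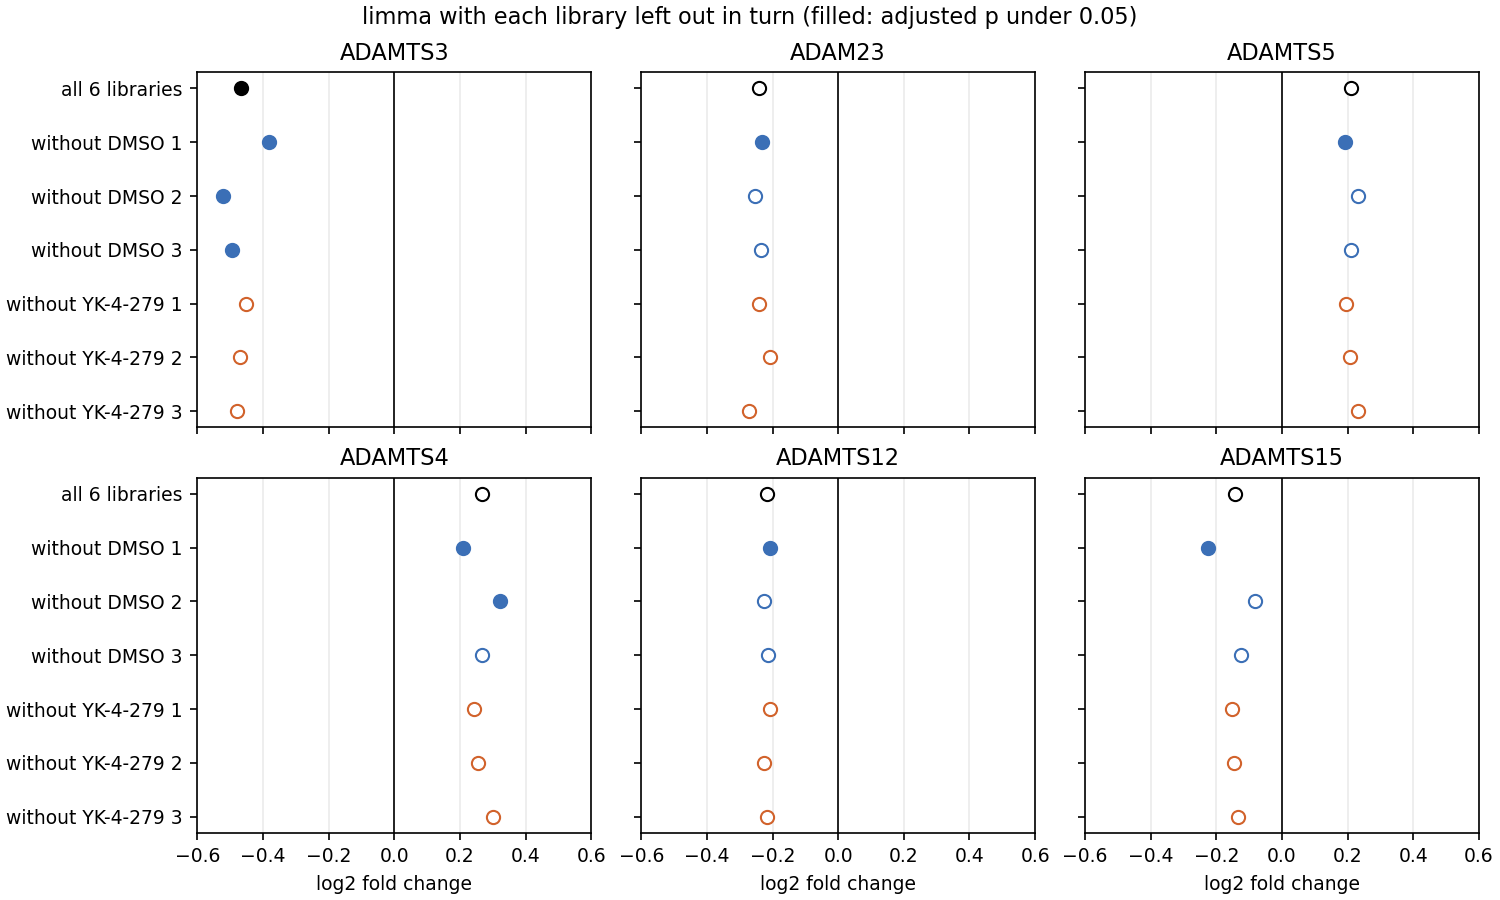
Log2 fold change of 6 genes in limma with all 6 libraries and with each library left out in turn, filled where the adjusted p was under 0.05. The direction is the same in every row, whereas filled points are mostly those without DMSO replicate 1, and no gene is filled when a YK-4-279 replicate is left out.

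The abundant MMPs and the TIMPs showed little difference. MMP2 had 9821, 9872 and 9424 normalized counts with YK-4-279, each above each DMSO library, and a log2 fold change of 0.15 (SE 0.06, 95% confidence interval 0.02 to 0.27) with an adjusted p of 0.187 in limma. MMP14 had 5476, 5435 and 5366, inside the range of the DMSO libraries, with a 95% confidence interval of -0.16 to 0.16. MMP16 likewise overlapped, with a log2 fold change of 0.04. MMP11, with the highest log2 fold change among MMPs at a mean of at least 100, had 117, 116 and 127 in DMSO and 145, 159 and 134 with YK-4-279, and its log2 fold change of 0.28 (SE 0.13) had an adjusted p of 0.259 in limma. TIMP2 had 3761, 3888 and 3927 with YK-4-279, TIMP3 had 2091, 2087 and 2006, and TIMP1 had 1019, 1064 and 987. For each of the 3 the groups overlapped. Their 95% confidence intervals were -0.19 to 0.06, -0.08 to 0.18 and -0.20 to 0.09 on the log2 scale, so that a change beyond these bounds was not seen at this depth.

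The main sheddases differed little as well. ADAM10 had 5749, 6017 and 6082 normalized counts with YK-4-279, each below each DMSO library, and its log2 fold change of -0.12 (SE 0.07) had an adjusted p of 0.370 in limma, with a range of 0.210 to 0.694 over all alternatives. Without DMSO replicate 1, the highest, its log2 fold change was -0.04, with an adjusted p of 0.548 in limma. ADAM19 had 3202, 3143 and 3309.7, and ADAM9 had 1196, 1316 and 1214, both overlapping with DMSO. ADAM17 had a log2 fold change of -0.06, and of 0.01 after the GC content and length trend was removed.

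Genes that work with these families were read from lists by role. Of the 9 sheddase partners (iRhoms, FRMD8 and tetraspanins), 9 were tested and none was called in limma, edgeR or DESeq2, with 2 at an unadjusted limma p under 0.05. TSPAN14, which had the most counts of this list, had a log2 fold change of -0.14 (adjusted p of 0.223 in limma, with a range of 0.00968 to 0.537 over all alternatives). Without DMSO replicate 1, TSPAN14 and RHBDF1 were called, both lower, which is 2 of 9 beside 13.1% of all genes. Among activators and their inhibitors, SERPINE2, the most abundant by counts, had a log2 fold change of -0.06. Plasminogen itself (PLG) was at 0 in all libraries, while its activators PLAU and PLAT had means of 616 and 1079.

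None of the 5 tested surface and extracellular regulators, 5 ADAMTS-like genes and 5 other metzincins was called in limma, edgeR or DESeq2, with 1, 2 and 2 at an unadjusted limma p under 0.05. Without DMSO replicate 1, only THBS1 (0.0180 adjusted p in limma), a surface and extracellular regulator, was called. The most abundant genes of these lists by counts were the endocytic receptor LRP1 (log2 fold change -0.02), THSD4 (-0.16) and BMP1 (-0.01). RECK, a membrane inhibitor of MMPs, had a mean of 381. Of 14 tested sheddase substrates, 1 was called in limma, beside 3.41% of all genes tested, and 5 were called without DMSO replicate 1, beside 13.1%. The gene called with all libraries was NOTCH3, which was lower, with 7486, 8317 and 8128 in DMSO and 7105, 6636 and 6267 with YK-4-279, a log2 fold change of -0.26 and an adjusted p of 0.0416 in limma. It was not called in edgeR (adjusted p of 0.0585), its call was lost in 11 of 18 alternatives, and the adjusted p ranged from 5.01e-07 to 0.235 over all alternatives. APP, the most abundant substrate by counts, had a log2 fold change of -0.05.

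Of 8 tested matrix substrates, 2 were called in limma, VCAN lower and COL1A1 higher, beside 3.41% of all genes tested. Without DMSO replicate 1 it was 3, beside 13.1%. The list as a whole was not tested. VCAN encodes versican, a proteoglycan that ADAMTS1, ADAMTS4 and ADAMTS5 are known to cleave, and it had 6857, 5675 and 5585 in DMSO and 4798, 4651 and 4697 with YK-4-279. Its log2 fold change was -0.35 (SE 0.07), with an adjusted p of 0.0218 in limma. COL1A1, a chain of type I collagen, had 579, 691 and 638 in DMSO and 816, 824 and 774 with YK-4-279, a log2 fold change of 0.34 (SE 0.08) and an adjusted p of 0.0375 in limma. COL4A1, the most abundant by counts, had a log2 fold change of 0.01. Aggrecan (ACAN), COMP and VWF, further substrates of ADAMTS enzymes, were under the minimum, with means of 0.657, 0.167 and 7.40.

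Of the 13 factors known to bind MMP and TIMP promoters, all were tested and 3 were called, all higher and all encoding AP-1 subunits, beside 1.26% of all genes tested. The list was written with earlier results known. JUN had 8008, 9331 and 8793 normalized counts in DMSO and 11552, 11566 and 11119 with YK-4-279, a log2 fold change of 0.39 (SE 0.06) and an adjusted p of 0.00687 in limma. FOS had 47.9, 33.0 and 46.8 in DMSO and 97.7, 73.9 and 98.0 with YK-4-279, a log2 fold change of 1.07 (SE 0.20) and an adjusted p of 0.0122 in limma. FOSB had 42.9, 32.0 and 19.2 in DMSO and 58.3, 73.9 and 61.0 with YK-4-279, a log2 fold change of 1.08 (SE 0.26) and an adjusted p of 0.0413 in limma. The groups of all 3 were apart. The other AP-1 genes of the list, FOSL1, FOSL2, JUNB and JUND, were not called in limma with all libraries. Their log2 fold changes were 0.45, 0.12, 0.50 and -0.01, with an adjusted p of 0.266, 0.384, 0.0805 and 0.978 in limma. Of these, JUNB was called, higher, without DMSO replicate 1 (adjusted p of 0.00269 in limma). Over the alternatives the adjusted p in limma, edgeR or DESeq2 reached 0.109 for JUN, 0.117 for FOS and 0.201 for FOSB. The calls of JUN were lost without YK-4-279 replicate 1 or 2 (adjusted p of 0.0842 and 0.0733). Those of FOS, FOSB, VCAN, COL1A1 and NOTCH3 were lost on leaving out any of the YK-4-279 replicates. Those of FOSB, COL1A1 and NOTCH3 were lost also without DMSO replicate 3 (0.104, 0.0927 and 0.121), and that of NOTCH3 without DMSO replicate 2 (0.0763). In limma without the trend option all 6 calls were lost, at an adjusted p between 0.0947 and 0.199. With quantile normalization FOSB (0.111) and NOTCH3 (0.119) were lost, and with TMM scaling NOTCH3 (0.0626). With the replicate number as a block FOSB (0.0542), COL1A1 (0.0812) and NOTCH3 (0.0971) were lost. Without a filter on the mean FOSB (0.0573) and NOTCH3 (0.0530) were lost. Without DMSO replicate 1, 7 of the 13 factors were called, beside 13.1% of all genes. Of the 5 ETS factors in the list, ETS1 had a log2 fold change of 0.01, ETS2 of -0.16, ETV1 of -0.09, ETV4 of -0.18 and ETV5 of -0.23. None of these 5 was called in limma with all libraries (lowest adjusted p 0.0967, ETV5), while ETV4 (0.000664) and ETV5 (0.0302) were called, both lower, without DMSO replicate 1. Among the 38 genes of the families with a promoter window, AP-1 letters were in those of MMP7, MMP10, MMP20 and ADAMTS12. The first 3 had 0, 1 and 0 reads over the 6 libraries. ADAMTS12 had a log2 fold change of -0.22 with an adjusted p of 0.0776 in limma. A link between these letters and the levels was not tested.

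Some values carry a further uncertainty from the annotation. Of the 36 genes, 11 overlap another gene with a mean of at least 10, 10 of them on the opposite strand. The strand setting of the counting is not given in the sources used here, so that reads of such pairs may be mixed. They include ADAMTS7 with MORF4L1 (mean 7959), ADAMTS13 with REXO4 (1439), ADAM9 with TM2D2 (483) and MMP24 with MMP24OS (588). The counts of ADAMTS7 are also uncertain because near-identical pseudogene copies of this gene are known.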

How the data were processed

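The authors trimmed reads with BBDuk, aligned them to hg38 with STAR 2.7.9a and counted them per gene; the submitters' processing notes also name DESeq2 1.44.0. The deposited unit is a normalized signal, in which whole reads were multiplied by 1 factor per library; 100% of values in each library came out whole (tolerance 0.01 reads). The annotation and strand setting are not given in the sources used here.

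limma 3.58.1 (R 4.3.3; lmFit, eBayes with trend) was applied to log2(normalized count + 1) where the mean reached 10 (13930 genes), two-sided, with Benjamini-Hochberg adjustment and a threshold of 0.05. Alternatives used edgeR 4.0.16 (quasi-likelihood) and DESeq2 1.42.0 on the recovered reads, other pseudocounts, filters, scalings and priors, a replicate block, libraries left out, and removal of GC content and length trends (98.4% of genes had both). Positions and lengths are from GENCODE (hg38), promoters from RefSeq (GRCh38.p14). ADAM genes were grouped by textbook knowledge of their catalytic site.

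The members and lists were chosen with earlier results of these data known. Named are all TIMPs, the 3 genes with the highest mean in each other family, every member called by limma, edgeR or DESeq2, the largest rise and fall per family at a mean of at least 100, and of each list of related genes those called and the most abundant. Levels are given for every member, and other genes, such as ADAMTS15, PLAU, PLAT, RECK and ETS1, were named after their values were seen.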

Additional observations from a re-analysis of the deposited data

How the results depend on the processing

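The 475 calls over all genes and the single member called varied with the fit, and the cause was not tested. Over all genes, 277 were called with quantile normalization, 33 with eBayes without trend, 1556 after the GC content and length trend was removed, and between 19 and 1823 with a library left out. Members called were 2 with TMM scaling, 2 with quantile normalization, 0 with eBayes without trend, 2 in edgeR, 3 in DESeq2, 8 after the GC content and length trend was removed, and between 0 and 6 with a library left out. With the replicate number as a block, 180 genes and 0 members were called; same-numbered libraries did not deviate together (correlations -0.0985, -0.0269 and -0.0267), so the numbers are not taken as pairs. The median log2 fold change of the members was -0.015 for means of at least 100, 0.029 with TMM scaling, 0.029 in edgeR, 0.026 in DESeq2, and 0.0067 to 0.0352 with a library left out.

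ADAMTS3 kept its direction in all 18 alternatives and its call in 13. Genes near 0 changed sign, none of them called: MMP14 was 0.015 with TMM scaling, 0.058 with quantile normalization, between -0.094 and 0.069 with a library left out (0.024 without DMSO replicate 3, 0.0077 without YK-4-279 replicate 3), 0.010 in edgeR and 0.0066 in DESeq2. With quantile normalization TIMP2 was 0.0033, ADAM19 0.032, LRP1 0.050 and APP 0.039. With a library left out, MMP16 lay between -0.0041 and 0.087, SERPINE2 between -0.097 and 0.0016, COL4A1 between -0.099 and 0.069 (-0.0027 without YK-4-279 replicate 1) and BMP1 between -0.079 and 0.112 (0.0059 without YK-4-279 replicate 2). After the GC content and length trend was removed SERPINE2 was 0.0052, COL4A1 -0.022 and ADAM17 0.015, and with TMM scaling BMP1 was 0.0056. FOS and FOSB gave no value for means of at least 100. With 3 libraries per group, small changes may have been missed. The 31 genes under the minimum were left out of the main limma test, so that changes of rare transcripts may also have been missed.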
